A study of Homo sapiens with 6 samples.

Results

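The autophagy core genes are the 36 genes that build the autophagosome and load its cargo, and they were followed here after silencing of METTL16, an RNA m6A methyltransferase, in the established line PANC-1, which derives from a human pancreatic ductal adenocarcinoma. Members were taken by gene symbol from a fixed list of initiation, nucleation, expansion, conjugation, ATG8 and cargo receptor genes, and all 36 were found among the 58735 genes of the deposited table and passed the filter on low counts. The 3 si-NC samples were transfected with control siRNA and the 3 si-METTL16 samples with siRNA against METTL16, with no other treatment named, while a further label calls the controls wild type and the methods describe the transfection as stable. A single cell line was used, the time between transfection and harvest is not given in the sources used here, and nothing besides the description of biological triplicates says that the samples came from separate cultures. METTL16 itself fell to 35.9% of the control level (log2 fold change -1.48, standard error, SE, 0.07, adjusted p = 8.34e-05 from edgeR). Its values were 91.5, 96.7 and 100.6 CPM in si-NC replicates 1, 2 and 3 and 34.8, 33.9 and 34.9 CPM in si-METTL16 replicates 1, 2 and 3 (CPM are counts scaled to library size with TMM factors), with every silenced sample far below every control.

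In autophagy, a double membrane closes around cytoplasm or marked cargo and delivers it to the lysosome. The ULK1 kinase complex starts the process, the BECN1 and PIK3C3 lipid kinase complex marks the growing membrane with phosphatidylinositol 3-phosphate, WIPI and ATG2 proteins with the scramblase ATG9A feed lipid into it, and a pair of ubiquitin-like conjugation systems attaches the ATG8 proteins of the LC3 and GABARAP subfamilies to its lipid. Cargo receptors such as SQSTM1, also called p62, bind ubiquitin with one end and ATG8 proteins with the other. Pancreatic ductal adenocarcinoma is known for high basal autophagy, and much of the control of the pathway acts on proteins, so that transcript levels describe the supply of its parts and not its flux.

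Calls were few in the steps that start and feed the autophagosome, while ATG8 and receptor genes were called in both directions. Of the 36 members, 6 were higher and 4 lower in si-METTL16 cells at an adjusted p under 0.05 (the quasi-likelihood test of edgeR, adjusted by Benjamini-Hochberg over 15089 genes, which all adjusted p-values below refer to unless another tool is named). These 10 make up 27.8% of the members, against 35.9% of all genes tested. By direction, 18.4% of all genes were higher and 17.5% lower. The median log2 fold change of the members was 0.0086, beside -0.0045 over all genes. For 18 members, or 50.0%, no value of one group fell within the range of the other, 8 of them being higher and 10 lower. Of all genes, 50.9% were separated in this way, 25.7% higher and 25.2% lower. Neither share of the members stood above that of all genes in this fit. With a log2 fold change of at least 0.5 in either direction required in addition, 22.8% of all genes and 7 members passed, namely WIPI2, ATG4A, MAP1LC3B and GABARAPL1 on the higher side and SQSTM1, CALCOCO2 and ATG4C on the lower side. Because these are bulk libraries, a change in every cell and a change in the share of cells in a given state cannot be told apart.

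**Figure D1:**
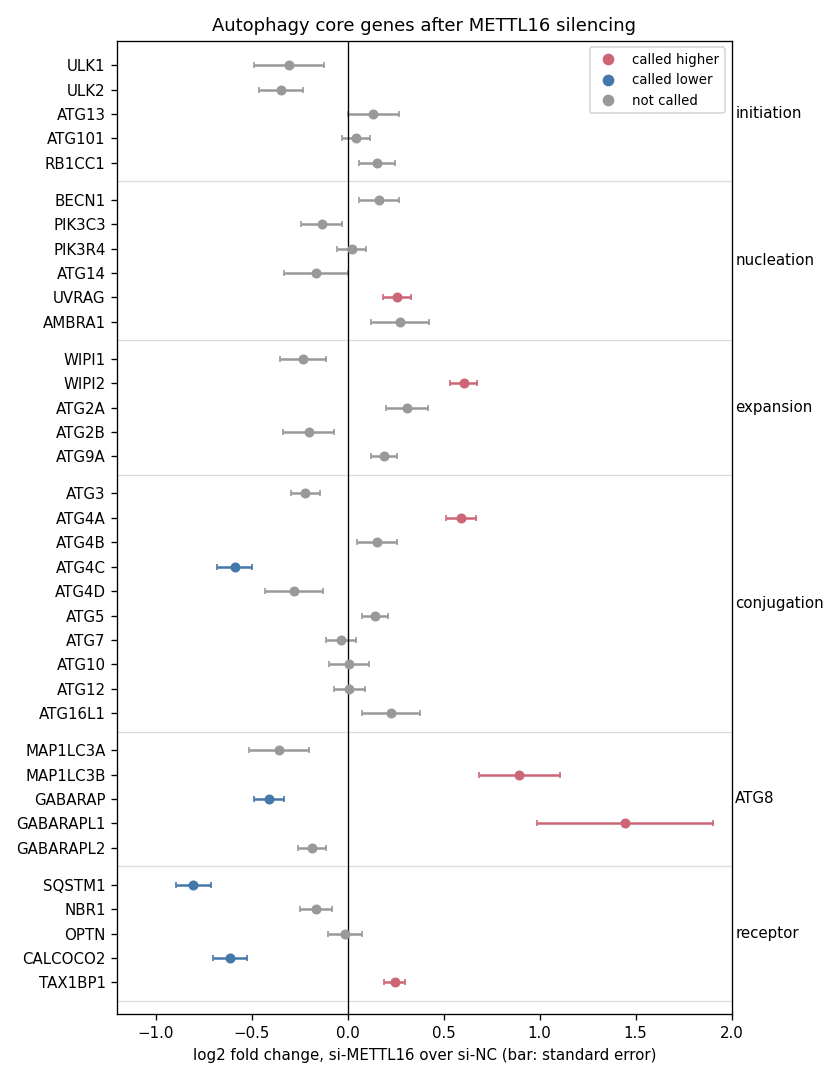
Log2 fold change (x axis, si-METTL16 over si-NC, edgeR) of each of the 36 autophagy core genes, grouped by role, with bars for the standard error and colour for the call. The 11 initiation and nucleation genes lie between -0.35 and 0.27 with 1 call, while the ATG8 genes span -0.41 to 1.44 and the receptors -0.80 to 0.25.

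Counts summed to between 15725298 and 18054436 per sample, at which 3 counts correspond to 0.167 to 0.192 CPM and so lie far below the level of any member, the lowest count of a member in any sample being 120. The ductal epithelial list of keratins, SOX9 and EPCAM had a summed FPKM of 351.0 to 453 in si-NC and 360.1 to 400.0 in si-METTL16. All 6 of its genes passed the filter on low counts, although KRT19 fell (log2 fold change -1.40, adjusted p = 0.00111). Acinar, endocrine and endothelial marker lists reached at most 0.481 summed FPKM in any sample. The leukocyte list summed to 1.97 to 2.18 in si-NC and 2.09 to 2.55 in si-METTL16, nearly all of it CD14 and CD68, with 1 of its 4 genes (CD3E) at 0. The fibroblast list rose from between 25.9 and 30.0 to between 62.4 and 66.1, almost wholly through COL1A1 (log2 fold change 1.27, adjusted p = 9.39e-05), while its markers DCN and PDGFRB had at most 7 counts in any sample. These sums add deposited FPKM of different genes, and the length scale behind FPKM is in doubt, as described below. The weight of each gene in a sum is therefore uncertain. The part of these markers in the results below was not tested.

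The sequences upstream of the most changed members are shown first, since MAP1LC3B and GABARAPL1 were the most raised members and SQSTM1 and CALCOCO2 the most lowered. They are the 250 bases before the RefSeq start site that matches the MANE Select transcript (GRCh38.p14), with capitals for matches to any of 4 motifs searched on both strands, namely the E-box CACGTG recognised by TFEB and MYC, the cAMP response element TGACGTCA, the forkhead motif GTAAACA and the antioxidant response element core TGACNNNGC.
MAP1LC3B (chr16:87392086-87392335, plus strand): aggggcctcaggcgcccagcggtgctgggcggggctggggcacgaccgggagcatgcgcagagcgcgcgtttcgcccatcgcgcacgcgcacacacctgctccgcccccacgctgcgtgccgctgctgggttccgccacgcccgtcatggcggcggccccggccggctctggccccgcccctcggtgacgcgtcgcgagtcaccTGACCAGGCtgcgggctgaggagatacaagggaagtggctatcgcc
GABARAPL1 (chr12:10212627-10212876, plus strand): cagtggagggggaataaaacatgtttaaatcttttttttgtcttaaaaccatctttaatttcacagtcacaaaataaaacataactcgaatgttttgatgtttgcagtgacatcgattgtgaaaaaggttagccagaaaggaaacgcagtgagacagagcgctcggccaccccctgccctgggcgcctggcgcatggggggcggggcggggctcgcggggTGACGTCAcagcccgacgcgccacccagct
SQSTM1 (chr5:179820655-179820904, plus strand): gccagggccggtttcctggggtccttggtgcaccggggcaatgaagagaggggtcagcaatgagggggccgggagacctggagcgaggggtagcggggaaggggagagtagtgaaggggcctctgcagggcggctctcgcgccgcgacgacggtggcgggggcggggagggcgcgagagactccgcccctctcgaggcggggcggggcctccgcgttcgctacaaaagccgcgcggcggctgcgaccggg
CALCOCO2 (chr17:48830785-48831034, plus strand): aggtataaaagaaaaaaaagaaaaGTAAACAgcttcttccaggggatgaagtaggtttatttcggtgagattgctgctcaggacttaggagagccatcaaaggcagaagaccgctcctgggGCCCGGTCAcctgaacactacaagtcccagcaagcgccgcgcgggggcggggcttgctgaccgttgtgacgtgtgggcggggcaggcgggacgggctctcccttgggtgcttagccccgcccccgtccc
MAP1LC3B held a match to the antioxidant response element core 46 bases before its start, and GABARAPL1 a full cAMP response element, a palindrome, 30 bases before its start. CALCOCO2 held a forkhead motif 226 bases and, on the opposite strand, an antioxidant core 129 bases before its start. The SQSTM1 window held none of the 4, which says only that these letters are not in this window. In 35116 windows of the same length over the genome, the E-box was found in 6.34%, the cAMP response element in 1.65%, the forkhead motif in 2.98% and the antioxidant core in 10.9%. Of the 32 members with a window, 2 had the E-box (ATG14 and ATG3), 1 the cAMP response element, 1 the forkhead motif and 3 the antioxidant core (ATG101 besides the genes above). The percentages are per window, while a member was counted if any of its windows matched, and SQSTM1, for example, has 3 windows. The antioxidant core thus stood before both a raised and a lowered gene, and a match is a description of the letters only.

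The initiation genes showed no call with all 6 samples. ULK1, the kinase that starts autophagosome formation, showed -0.31 on the log2 scale (adjusted p = 0.228), with 95.2 to 131 CPM in si-NC samples and 72.8 to 114 CPM in silenced samples, so that the groups overlapped. Without si-METTL16 replicate 1 it passed the test (-0.51 on the log2 scale, adjusted p = 0.0452), and the leave-one-out values ran from -0.51 to -0.18. ULK2, its close relative, had lower values in every si-METTL16 sample (37.4 to 43.6 CPM against 46.9 to 59.1) and a log2 fold change of -0.35, yet missed the threshold (adjusted p = 0.0513). The remaining subunits of the complex, ATG13, ATG101 and the scaffold RB1CC1 (FIP200), had log2 fold changes of 0.13, 0.04 and 0.15 (adjusted p = 0.462, 0.679 and 0.248). Both kinases lay on the lower side and all 3 partners on the higher side, in each case without a call. The value of ATG101 turned to -0.0099 without si-NC replicate 2.

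Among the nucleation genes, UVRAG, a BECN1 partner of the endosomal form of the lipid kinase complex, was the only call. It ranged from 36.5 to 39.0 CPM in si-NC samples and from 44.4 to 45.1 CPM in silenced samples, which gave a log2 fold change of 0.26 with an SE of 0.07 (adjusted p = 0.0283). The groups were separate but close, and the call was lost in 5 of the 6 leave-one-out fits (adjusted p from 0.057 to 0.0854), being kept without si-NC replicate 1. ATG14, which takes the place of UVRAG in the autophagy-specific complex, showed a value of -0.16 on the same scale (adjusted p = 0.477). The scaffold BECN1, the catalytic subunit PIK3C3 and its regulatory subunit PIK3R4 had log2 fold changes of 0.16, -0.14 and 0.02 (adjusted p = 0.266, 0.365 and 0.852). AMBRA1, a regulator of BECN1 and ULK1, had one of 0.27 (adjusted p = 0.195).

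In the expansion step, WIPI2 (chr7:5190188-5233826, deposited GRCh38 coordinates, as for the genes below), the phosphatidylinositol 3-phosphate reader that brings ATG16L1 to the membrane, rose. It had 85.6, 77.7 and 79.9 CPM in the si-NC samples and 129, 125 and 116 CPM in the si-METTL16 samples, in replicate order. All 3 silenced samples lay well above all 3 controls, and the log2 fold change was 0.60 with an SE of 0.07 (adjusted p = 8.35e-04). Its paralog WIPI1 had a log2 fold change of -0.23 with groups that did not overlap (adjusted p = 0.167). Of the lipid transfer proteins, ATG2A showed a log2 fold change of 0.31 (adjusted p = 0.0648) and ATG2B -0.20 (adjusted p = 0.277), and ATG9A had 0.19 (adjusted p = 0.0642). With si-NC replicate 1 left out, ATG2A passed at 0.41 on the log2 scale (adjusted p = 0.0265). The WIPI and the ATG2 genes each had a member on either side of 0, of which WIPI2 alone passed with all 6 samples.

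The conjugation genes with the classical ubiquitin-like activities did not pass the test. ATG7, the activating enzyme of both systems, and ATG12, the ubiquitin-like protein joined to ATG5, had log2 fold changes of -0.04 and 0.01 (adjusted p = 0.759 and 0.946). On the log2 scale, ATG10, the conjugating enzyme of ATG12, had a difference of 0.01, ATG5 0.14 and ATG16L1, which places the ATG12 and ATG5 conjugate at the membrane, 0.23 (adjusted p from 0.152 to 0.96). ATG3, the conjugating enzyme of the ATG8 proteins, was lower in every silenced sample but missed the threshold (log2 fold change -0.22, adjusted p = 0.055). The value of ATG10 is uncertain if counting ignored strand, because its exons share 374 bases with RPS23 on the opposite strand, a ribosomal protein gene with 103824 counts over the 6 samples against 1448 for ATG10. ATG7 shares 1597 exonic bases with VGLL4 on the opposite strand in the same way, and ATG3, ATG4D, ATG12, ATG14 and BECN1 share between 124 and 1047 exonic bases with an opposite neighbour.

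The ATG4 proteases, which trim ATG8 proteins for conjugation and later release them from lipid, were divided. ATG4A (chrX:108091668-108154671), which acts mainly on the GABARAP subfamily, had 28.6, 26.3 and 26.7 CPM in si-NC samples and 42.2, 39.0 and 41.6 CPM in silenced samples, which gave a log2 fold change of 0.59 with an SE of 0.08 (adjusted p = 0.00156). ATG4C (chr1:62784135-62865513) had 22.5, 24.7 and 25.1 CPM in si-NC samples and 16.4, 15.4 and 16.3 CPM in silenced samples, which gave a log2 fold change of -0.59 with an SE of 0.09 (adjusted p = 0.0028). In each gene the 3 samples of a group lay close together and the groups far apart, in opposite directions and by nearly the same amount. ATG4B, the most active family member, and ATG4D did not pass the test (log2 fold changes 0.15 and -0.28, adjusted p = 0.286 and 0.195). Per kilobase of the MANE Select transcript, ATG4A made up 25.6% to 26.0% of the summed ATG4 level in si-NC and 33.9% to 36.4% in si-METTL16 samples, while ATG4C went from between 15.3% and 18.2% to between 9.95% and 10.6%. ATG4B held 44.8% to 48.8% and 44.4% to 49.0%, so that the ranges of the largest share overlapped.

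**Figure D2:**
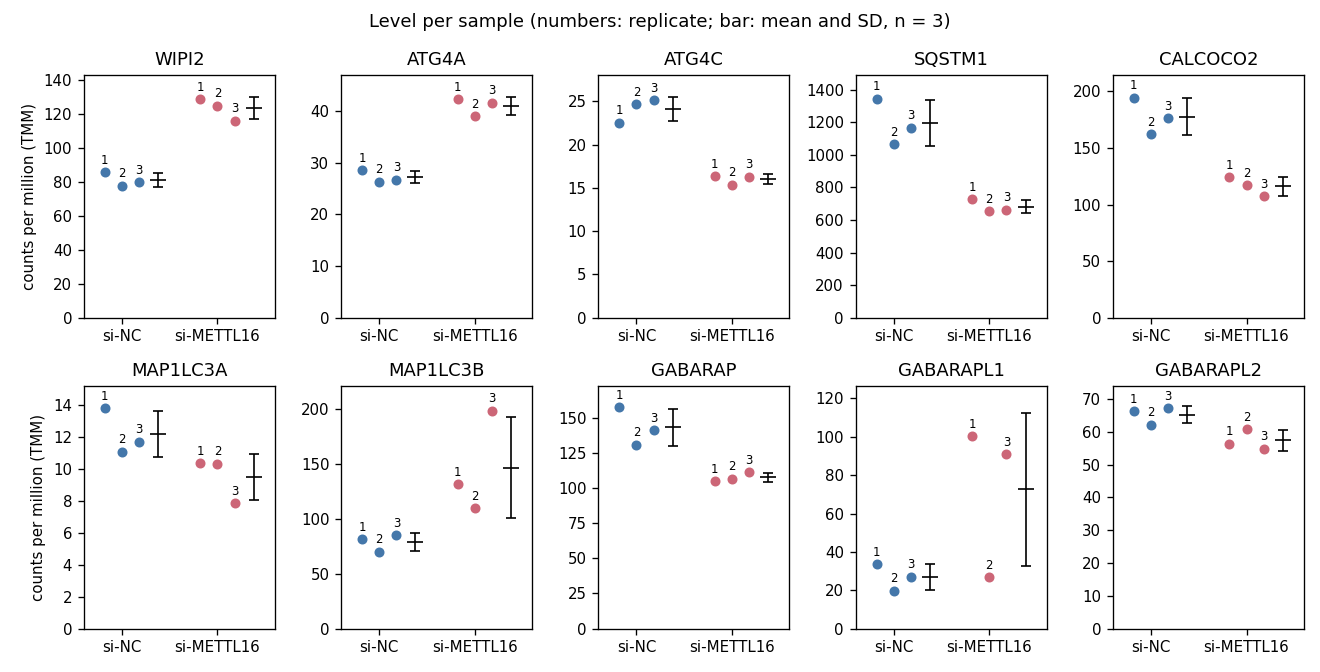
TMM-scaled CPM (y axis, from 0) of 10 members in each sample, with the replicate number above each point and a bar for the mean and SD (n = 3). The groups are separate in each panel except that of GABARAPL1, where si-METTL16 replicate 2, at 26.9 CPM, lies among the si-NC samples (19.7 to 33.4 CPM).

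The ATG8 genes, whose products coat the membrane and hold the receptors, changed in both directions. MAP1LC3B (chr16:87383995-87404779), the source of the LC3B protein used as the standard autophagosome marker, had 81.5, 70.1 and 85.0 CPM in si-NC samples and 131, 110 and 198 CPM in si-METTL16 samples. Every silenced sample was above every control, with replicate 3 far above the other two, and the log2 fold change was 0.89 with an SE of 0.21 (adjusted p = 0.0149). Leaving out si-NC replicate 2 raised the adjusted p to 0.0517, and the leave-one-out values ran from 0.61 to 1.06 on the log2 scale. MAP1LC3B2, a near-identical copy on chromosome 12 that can share reads with it, had 1694 counts over the 6 samples. This copy also rose (log2 fold change 0.62, adjusted p = 0.00541), and reads of these genes may be split between them. The exons of MAP1LC3B also share 60 bases with FBXO31 on the opposite strand, whose counts came to 20.9% of those of MAP1LC3B.

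GABARAPL1 (chr12:10212458-10223130) had 33.4, 19.7 and 27.1 CPM in si-NC samples and 100.4, 26.9 and 90.9 CPM in si-METTL16 samples. Silenced replicates 1 and 3 were high and replicate 2 was at the control level, so that the groups overlapped. Its log2 fold change of 1.44, the highest among the members, had a standard error of 0.46 and an adjusted p of 0.0453. In leave-one-out fits, the call was kept only without si-METTL16 replicate 2 (log2 fold change 1.84, adjusted p = 0.00263) and lost in the other 5 (adjusted p from 0.0754 to 0.130). Limma on voom values did not call it either (adjusted p = 0.105). The second si-METTL16 replicate also had the lowest MAP1LC3B of the silenced samples. Its antisense neighbour GABARAPL1-AS1 and its copies named GABARAPL3 held at most 1 count over the 6 samples.

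The other ATG8 genes lay on the lower side. GABARAP (chr17:7240014-7242770) had 157, 131 and 141 CPM in si-NC samples and 105, 107 and 111 CPM in silenced samples. The log2 fold change was -0.41 with an SE of 0.08 (adjusted p = 0.00674). The exons of GABARAP share 691 bases with the protein-coding gene ENSG00000262526 on the same strand, whose counts came to 3.70% of those of GABARAP. GABARAPL2 (GATE-16) had 66.3, 62.2 and 67.2 CPM in si-NC samples and 56.4, 60.8 and 54.8 CPM in silenced samples, and MAP1LC3A had 13.8, 11.1 and 11.7 CPM and 10.4, 10.3 and 7.84 CPM. The silenced samples of these 3 genes were all below the controls, but the log2 fold changes of GABARAPL2 (-0.19, adjusted p = 0.0891) and MAP1LC3A (-0.36, adjusted p = 0.117) did not pass the test.

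The deposited FPKM could not be used to rank these genes against each other. The gene length implied by count and FPKM was 1.09 to 8.34 times that of the MANE Select transcript over the 36 members, and for GABARAPL1, GABARAP and ATG12 it exceeded the whole span of the gene (15708 bases against 10673 for GABARAPL1), as it did for 13.7% of the 14124 genes with at least 100 counts. Levels of different genes were therefore compared as CPM per kilobase of the MANE Select transcript. Such ranks and shares assume that the counts of each gene come from that transcript. That was not tested, nor was the source of the length mismatch. On that scale, SQSTM1 was the highest member in both groups, at 420 ± 49.8 (SD, n = 3) in the controls against 241 ± 14.4 (SD, n = 3) in silenced samples, and ATG2B the lowest, with 1.09 ± 0.136 (SD, n = 3) and 0.944 ± 0.0828 (SD, n = 3). GABARAP followed SQSTM1 in si-NC samples with 108.5 ± 10.1 (SD, n = 3), and TAX1BP1 did so in si-METTL16 samples with 103.8 ± 1.96 (SD, n = 3). Among the ATG8 genes, the share of GABARAP went from between 44.2% and 46.4% of the family to between 29.2% and 36.8%, and that of MAP1LC3B from between 14.8% and 16.4% to between 23.3% and 31.9%. GABARAPL1 held 4.80% to 6.90% in si-NC samples and 20.3%, 6.52% and 16.7% in the 3 silenced samples, in replicate order. The summed ATG8 level overlapped between the groups, at 239 ± 20.1 (SD, n = 3) and 257 ± 35.4 (SD, n = 3) CPM per kilobase.

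**Figure D3:**
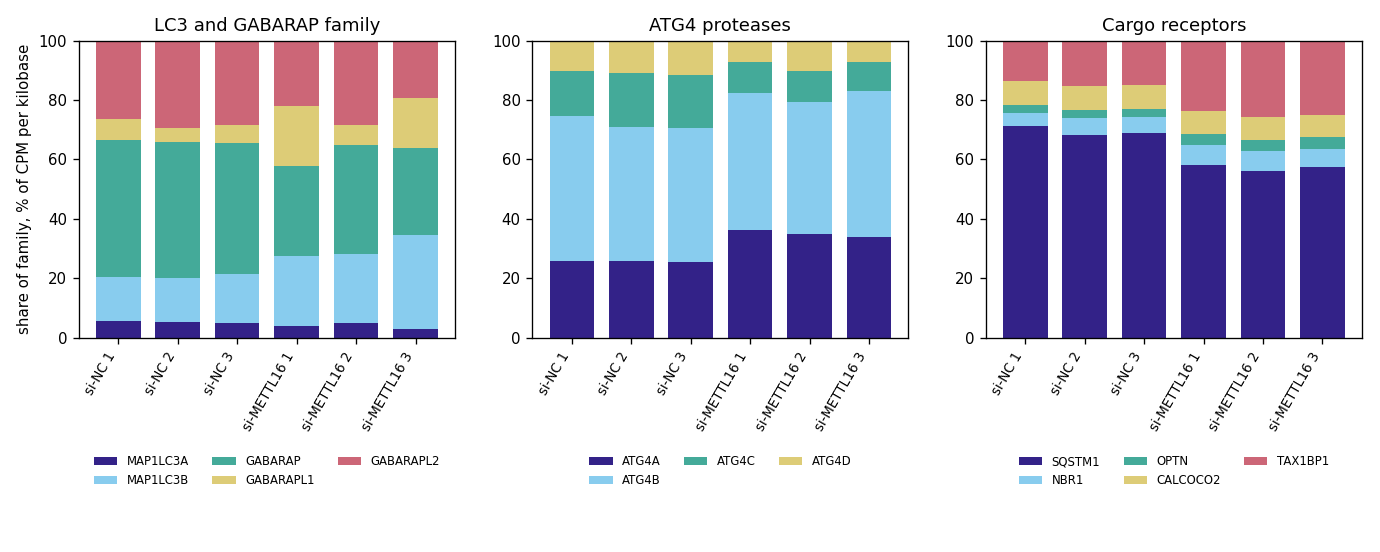
Share (y axis, percent of the family's summed CPM per kilobase of MANE Select transcript) of each gene in the LC3 and GABARAP family, the ATG4 proteases and the cargo receptors, with a stacked bar for each sample. The shares of MAP1LC3B, ATG4A, TAX1BP1, NBR1 and OPTN are larger in each si-METTL16 sample than in any si-NC sample. Those of MAP1LC3A, GABARAP, ATG4C, SQSTM1 and CALCOCO2 are smaller in the same way.

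The cargo receptors contained the largest decreases. SQSTM1 (chr5:179806398-179838078), the p62 receptor of ubiquitinated cargo and itself degraded by autophagy as a protein, had 1346, 1067 and 1167 CPM in si-NC samples and 730.1, 656 and 664 CPM in si-METTL16 samples. All silenced samples lay well below every control, which gave a log2 fold change of -0.80 with an SE of 0.09 (adjusted p = 7.88e-04), or 57.2% of the control level. Its exons share 1582 bases with MRNIP and 105 bases with MGAT4B on the opposite strand, genes whose counts came to 2.34% and 15.1% of those of SQSTM1. CALCOCO2 (NDP52, chr17:48830988-48866522), a receptor for bacteria and damaged mitochondria, had 194, 162 and 176 CPM in si-NC samples and 124, 117 and 107 CPM in silenced samples, which gave a log2 fold change of -0.61 with an SE of 0.09 (adjusted p = 0.00192). Both decreases were called in all 6 leave-one-out fits, with ranges of -0.89 to -0.71 for SQSTM1 and -0.68 to -0.55 for CALCOCO2.

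TAX1BP1, a paralog of CALCOCO2 that also binds ubiquitinated cargo, rose slightly. It ranged from 285 to 313 CPM in si-NC samples and from 348 to 361 CPM in silenced samples, which gave a log2 fold change of 0.25 with an SE of 0.05 (adjusted p = 0.0116). The groups did not overlap, and the call was kept in all 6 leave-one-out fits. Its exons share 415 bases with JAZF1 on the opposite strand, which had 1183 counts over the 6 samples. NBR1, a receptor that acts together with p62, and OPTN, a receptor of mitophagy, had log2 fold changes of -0.17 and -0.01 (adjusted p = 0.161 and 0.918). SQSTM1 made up 68.4% to 71.3% of the summed receptor level per kilobase in si-NC samples and 56.1% to 58.3% in si-METTL16 samples. TAX1BP1 made up 13.7% to 15.2% and 23.6% to 25.7%. The shares of NBR1 (4.47% to 5.59% and 5.92% to 6.85%) and OPTN (2.52% to 2.84% and 3.57% to 4.23%) were also larger, although neither gene was called. A share depends on the levels of the other receptors as well. The summed level itself was 603 ± 58.3 (SD, n = 3) in the controls against 420 ± 18.9 (SD, n = 3) in silenced samples, without overlap.

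The 96 further pathway genes, in 6 lists, extended the view to regulators and later steps. Of the 92 tested, 19 were higher and 20 lower (42.4% called, beside 27.8% of the core genes and 35.9% of all genes). In each list some genes rose and others fell.

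Among 11 tested genes of autophagosome formation outside the core, 4 rose and 3 fell. RUBCN (Rubicon), an inhibitor of the UVRAG form of the lipid kinase complex, rose by a log2 fold change of 0.76 (adjusted p = 0.00266), as did the scramblase TMEM41B (0.56, adjusted p = 0.0125). NRBF2, a subunit of the ATG14 complex, showed a log2 fold change of -0.56 (adjusted p = 0.00171) and ATG16L2 -0.60 (adjusted p = 0.0314). Among 12 genes of fusion with the lysosome, 3 rose and 3 fell, and the 6 calls became 3 without si-NC replicate 3. In that fit the share of all genes called also fell, from 35.9% to 26.9%. The adaptor PLEKHM1 showed a log2 fold change of 0.69 (adjusted p = 0.0187), and the SNARE protein VAMP8 and the tethering subunit VPS33A had -0.79 and -0.87 (adjusted p = 2.57e-04 and 5.04e-04). STX17, the SNARE of the autophagosome, did not pass at -0.27 on that scale (adjusted p = 0.171).

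Of 27 genes around the growth kinase complex mTORC1, which restrains the ULK1 complex, and the energy sensor AMPK, which activates it, 5 rose and 5 fell. The AMPK subunits PRKAG2 and PRKAA2 had log2 fold changes of 0.99 and 0.71 (adjusted p = 2.83e-04 and 0.00259), and FNIP2, a partner of folliculin, had 0.81 (adjusted p = 4.03e-04). DEPTOR, DDIT4 and TSC1, which restrain mTORC1, had log2 fold changes of -0.88, -0.78 and -0.65 (adjusted p = 0.00413, 0.00101 and 0.00569). AKT1S1 (PRAS40), another inhibitor of mTORC1, rose instead (0.41 on the log2 scale, adjusted p = 0.00811), and MLST8, a subunit of the complex itself, fell (-0.37, adjusted p = 0.0107). The remaining calls were FNIP1, which rose, and the stress-induced SESN1, which fell. Among 9 tested transcription factors of the pathway, 2 rose and 1 fell, and log2 fold changes over the list ran from -0.69 to 1.13. TFEB did not pass (log2 fold change 0.09, adjusted p = 0.75), at a mean of 4.26 CPM in silenced samples, while its relatives TFE3 and MITF rose (log2 fold changes 0.29 and 1.13, adjusted p = 0.014 and 0.00834).

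Of 19 receptors and regulators of organelle autophagy, 2 rose and 4 fell, and the 6 calls became 3 without si-METTL16 replicate 3 and 3 with no filter on low counts. The share of all genes called also fell in these fits, from 35.9% to 29.4% and 15.6%. ATL3, a receptor of the tubular endoplasmic reticulum, showed a log2 fold change of 0.44 (adjusted p = 0.00161), CALCOCO1 -0.58 (adjusted p = 0.00243) and CCPG1, another receptor of the endoplasmic reticulum, -0.47 (adjusted p = 0.0123). This list had the lowest median log2 fold change of the 6, -0.27, with 14 of its 19 genes below 0. Over all genes tested, 7614 of 15089 lay below 0. The 6 calls made up 31.6% of the list, beside 35.9% of all genes. Of 14 lysosome genes, 3 rose and 4 fell, NPC1, which exports cholesterol from the lysosome, having a log2 fold change of 0.70 and the protease CTSL and the proton pump subunit ATP6V1A -0.49 each (adjusted p = 0.00373, 0.0107 and 0.00243).

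**Figure D4:**
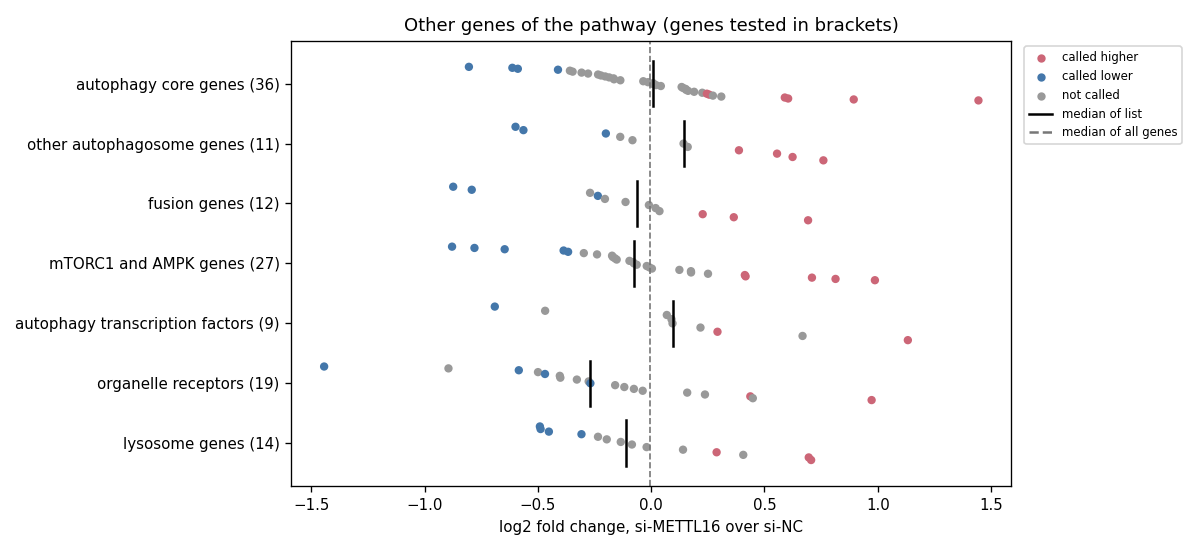
Log2 fold change (x axis, si-METTL16 over si-NC) of every tested gene of the core list and the 6 further pathway lists, coloured by call, with a black bar for the median of each list and a dashed line for the median of all genes. Each list has genes called in both directions, and its median lies within 0.27 of 0.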

How the data were processed

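RNA-seq of 6 PANC-1 samples was used, 3 si-NC and 3 si-METTL16, grouped by their titles. Per the labels, the submitters' processing notes name HISAT2 2.0.4, StringTie 1.3.0 and GRCh38, without a role, and strand use is not given in the sources used here. The authors deposited raw counts and FPKM values for 58735 genes. The methods name limma without covariates. Here counts were tested with edgeR 4.0.16 (R 4.3.3, TMM, filterByExpr with a minimum count of 10 and a minimum total of 15, glmQLFit and glmQLFTest), which left 15089 genes, with Benjamini-Hochberg adjustment at 0.05. The 27 symbols turned into dates by a spreadsheet were restored from gene identifiers. Members and lists were chosen with earlier results of these data known. Values in every sample are given for members past the threshold whose log2 fold change was at least 0.5 in size and for the ATG8 family, and other members by range or by log2 fold change. From each further list, up to 3 called genes in each direction could be named, and TFEB, TFE3, STX17 and COL1A1 besides. Some genes of these lists are not reported here by name. AKT1S1, MLST8, FNIP1, SESN1, STX17 and COL1A1 were chosen after their values were seen. Transcript lengths came from GENCODE v44 and upstream windows from RefSeq (GRCh38.p14). Pairs of replicates differed by more than sampling noise (chi-square per degree of freedom at least 15.7). On simulated counts of 15089 genes with 200 changed by a log2 fold change of 1, 163 were recovered, none with the wrong direction, beside 17 false calls. The changes were planted only in genes above a minimum level, and in far fewer genes than the 35.9% called in the data. Their size was above that of every member but GABARAPL1, so recovery of smaller changes was not tested. Alternatives were the replicate block, each sample left out, other filters and scalings, DESeq2 1.42.0 and limma 3.58.1 on voom values and on log2(FPKM + 1).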

Additional observations from a re-analysis of the deposited data

How the results depend on the processing

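The count of 10 core genes called was 7 to 10 when a sample was left out and 8 to 12 under the other fits at the same threshold, and 6 at an adjusted p under 0.01. The share of all genes called moved as well, from 35.9% to between 26.9% and 29.4% when a sample was left out. With no filter on low counts it was 15.6% of 28883 genes, below the share of core genes there (8 of 36). Under the remaining fits it was 33.2% to 38.6%. Without si-NC replicate 2, 3 core genes were called higher in place of 6, with MAP1LC3B, GABARAPL1 and UVRAG lost. Without si-METTL16 replicate 1, ULK1 gained one (adjusted p = 0.0452). ULK2 gained a call with the stricter filter, library totals and DESeq2 (adjusted p from 0.0342 to 0.0465). WIPI2, ATG4A, ATG4C, GABARAP, SQSTM1, CALCOCO2 and TAX1BP1 were called under all 14 alternatives at that threshold, MAP1LC3B under 13, and UVRAG and GABARAPL1 under 6 each. Signs turned for 6 members near 0, none of them called. With library totals in place of TMM, the log2 fold changes of PIK3R4, ATG10 and ATG12 were -0.00045, -0.013 and -0.013, and with limma on log2(FPKM + 1) those of ATG10 and ATG12 were -0.0081 and -0.013. When a sample was left out, the ranges were -0.071 to 0.0064 for ATG7, -0.070 to 0.046 for OPTN, -0.0099 to 0.071 for ATG101, -0.047 to 0.048 for ATG10, -0.032 to 0.080 for ATG12 and -0.032 to 0.050 for PIK3R4. The cause was not tested.

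Deviations from the group means correlated only weakly between same-numbered samples (0.0253, 0.0371 and 0.0298), although every sample correlated best with its own number. These values do not settle whether the replicate numbers pair the samples, and the main fit used no replicate block. With the replicate block, 10 core genes were called, 9 of them shared with the fit without it. ULK1 gained a call (log2 fold change -0.32, adjusted p = 0.0244 from edgeR) and UVRAG lost it (0.26, adjusted p = 0.0601), and 5013 genes were called in all. Precision is limited by 3 samples a group.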
